A study of Mus musculus with 12 samples.

Results

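Genes of signalling by calcitonin gene-related peptide (CGRP) and by lysophospholipids were followed in single cells of the mouse paw epidermis. They were taken by gene symbol: the receptor activity-modifying proteins Ramp1, Ramp2 and Ramp3, the receptor Calcrl, the lysophosphatidic acid (LPA) receptors Lpar1, Lpar3 and Lpar6, the sphingosine-1-phosphate (S1P) receptor S1pr1, the S1P transporter Spns2 and the LPA-producing enzyme Enpp2. These are 10 of the 32285 genes in the count files, and all 10 symbols were found. The cells came from glabrous hind paw skin of wild-type C57BL/6J mice aged 16 to 18 weeks, 1 library per mouse. Mice of each sex had been fed for 10 weeks, from an age of 6 to 8 weeks, with a regular diet (RD, 11% fat) or a high-fat diet (HFD, 42% fat), with 3 mice for each sex and diet. The high-fat diet is a model of obesity with neuropathic pain, and no group was treated otherwise. The question was in which epidermal cells these genes are expressed, and whether their level in a given cell type differs between the diets.

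CGRP is a neuropeptide released by sensory nerve endings, which run between the keratinocytes and Langerhans cells (LCs) of the epidermis. Its receptor is a pair of proteins: Calcrl binds the peptide only together with a RAMP, and the RAMP sets the ligand preference, with Ramp1 favouring CGRP and Ramp2 or Ramp3 favouring adrenomedullin. LPA and S1P are signalling lipids. Enpp2 (autotaxin) makes LPA outside the cell, the Lpar genes encode its G protein-coupled receptors, Spns2 exports S1P, and S1pr1 is a receptor for S1P that guides the egress of lymphocytes.

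Between 134449247 and 194673581 unique molecular identifiers (UMIs, each standing for 1 captured transcript molecule) were counted per mouse, and 62147 male and 64228 female cells were kept. Any 2 libraries shared between 15 and 70 cell barcodes, at most 0.564% of the smaller library. Male and female cells were clustered separately and clusters were called "-like" after lists of marker genes. The LC-like class held 1375 male and 2198 female cells, and its 8 LC markers, among them Cd207 (langerin) and the major histocompatibility complex class II genes, together were at 34800 to 53660 CPM, the UMIs of a gene per 1000000 UMIs of the class. The T cell-like class held 194 male and 287 female cells. The remaining classes were keratinocytes, from basal-like and proliferating-like through suprabasal or spinous-like, Krt9-high-like and upper suprabasal-like to terminally differentiated-like, and a migratory-like class marked by Krt79 and Lrig1. The suprabasal clusters of both sexes had 0 markers of their own class among their 10 leading genes. In females 1 marker of another class, Serpinb12, was among them, and that cluster is called female cluster 3. The basal-like class of each sex joined a larger and a smaller cluster. The smaller, of 1620 male and 1558 female cells, also had 0 markers of its own class among its 10 leading genes. The file headers give Cell Ranger 6.1.0 for males and 7.2.0 for females, so a difference of level between the sexes cannot be told apart from the counting software. A level is given below as the mean CPM over the 6 mice of a sex ± SD, and fewer expressing cells cannot be told apart from less RNA per cell in such sums.

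**Figure D1:**
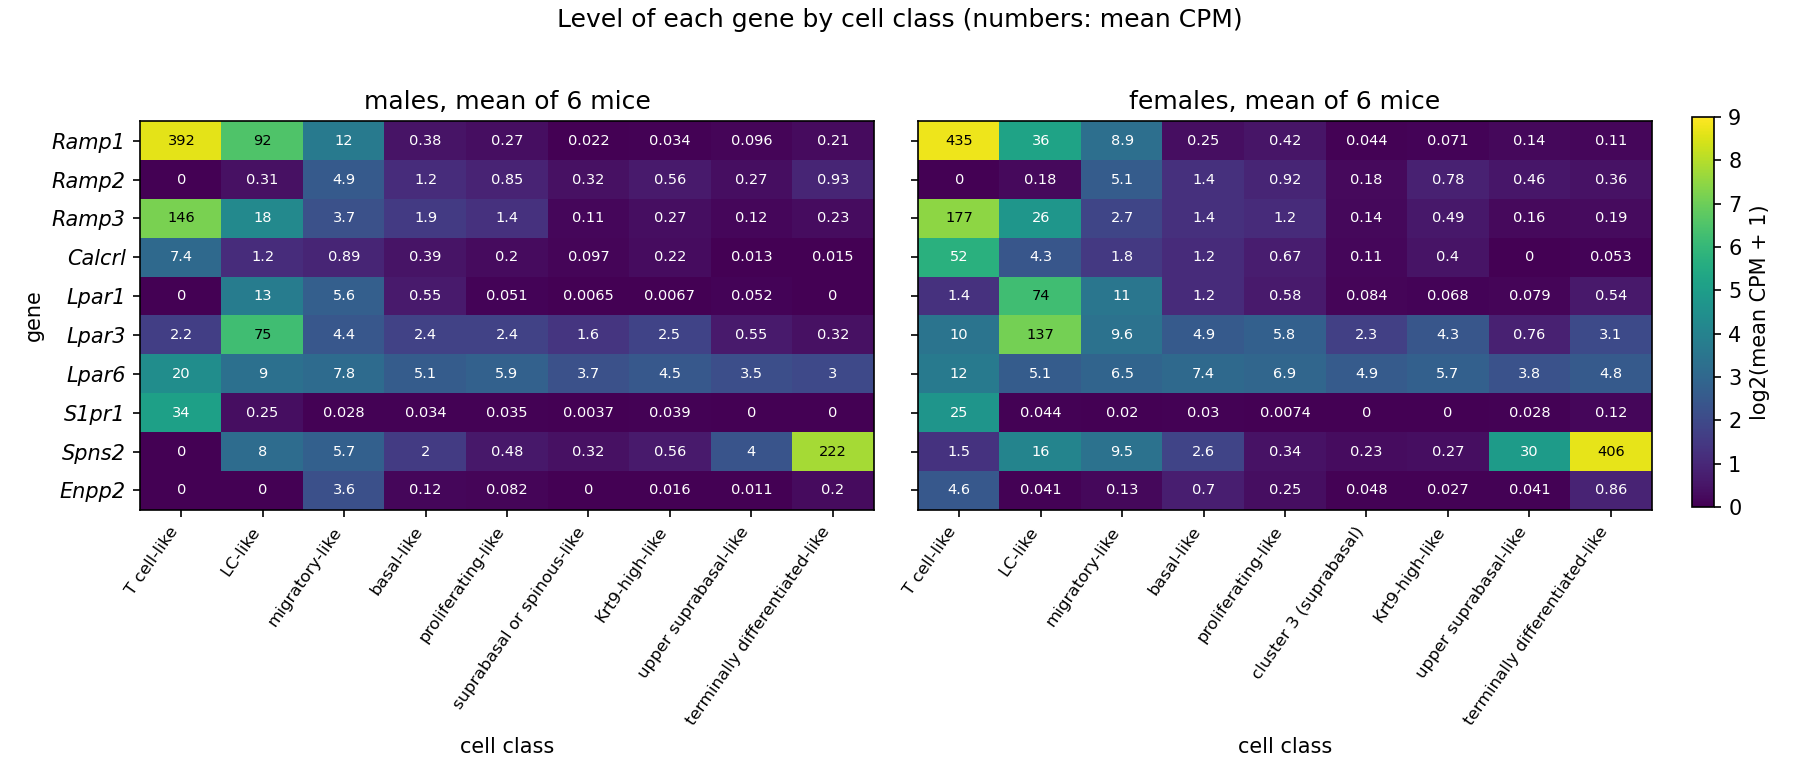
Mean level of each gene (rows) in each cell class (columns), in CPM over 6 mice of a sex, with color on the scale of log2(mean CPM + 1). Ramp1 and Ramp3 are highest in T cell-like cells, Lpar1 and Lpar3 in LC-like cells and Spns2 in terminally differentiated-like cells, while Lpar6 is spread over all classes.

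Ramp1 and Ramp3 were highest in the immune cells of the epidermis. Ramp1, on chromosome 1 (GRCm38 chr1:91179822-91225196, plus strand), had its highest level in T cell-like cells, at 392 ± 160 CPM in males and 435 ± 103 CPM in females (n = 6 mice each). LC-like cells followed with 91.6 ± 28.7 and 35.9 ± 15.9 CPM, and migratory-like cells with 12.2 ± 3.79 and 8.88 ± 2.04 CPM. The ranges over mice of these 3 classes did not overlap in either sex. In every other class Ramp1 stayed at or below 0.423 CPM. Ramp3 (chr11:6658521-6677475, plus strand) followed the same order, with 146 ± 88.3 and 177 ± 69.0 CPM in T cell-like cells, then 17.7 ± 4.85 and 25.7 ± 6.06 CPM in LC-like cells and 3.66 ± 1.16 and 2.70 ± 0.980 CPM in migratory-like cells, the last of which overlapped with basal-like cells.

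Ramp1 and Ramp3 thus had a class pattern in common, and the 250 bases before the start of each gene in RefSeq (GRCm38.p6) are shown for comparison, with matches to the GC box GGGCGG, on either strand, in capitals. Ramp1 occupies chr1:91179572-91179821 and Ramp3 chr11:6658283-6658532, both on the plus strand.

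Ramp1: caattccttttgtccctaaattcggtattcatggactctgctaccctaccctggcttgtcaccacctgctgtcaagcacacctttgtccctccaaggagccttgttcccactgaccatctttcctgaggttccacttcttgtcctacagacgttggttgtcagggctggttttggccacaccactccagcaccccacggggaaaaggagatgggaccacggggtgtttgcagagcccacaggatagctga

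Ramp3: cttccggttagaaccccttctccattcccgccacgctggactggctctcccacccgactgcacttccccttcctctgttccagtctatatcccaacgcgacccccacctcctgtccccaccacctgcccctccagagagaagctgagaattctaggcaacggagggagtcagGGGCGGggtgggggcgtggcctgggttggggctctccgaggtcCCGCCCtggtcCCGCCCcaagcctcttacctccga

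The window of Ramp3 held 3 GC boxes and that of Ramp1 held none, and the motif was found in 32.7% of the 32851 windows of that length. RefSeq gave a window for 7 of the 10 genes. Of the other motifs searched on both strands (GAGGAAGT for PU.1, TGTGGTT for RUNX, TGANTCA for AP-1, TATAAA for the TATA box, AGATAA for the GATA factors, TGACGTCA for CREB, GGGTGTGG and CCCCACCC for KLF factors, CACGTG for the E-box and TTGCNNAA for C/EBP), only CCCCACCC occurred in either window, once in that of Ramp3, and it is found in 9.05% of all windows. These matches describe the letters of the windows only.

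Calcrl, the receptor that the RAMPs accompany (chr2:84330626-84425411, minus strand), was sparse. In females T cell-like cells held 51.9 ± 30.8 CPM (48 UMIs) and LC-like cells 4.29 ± 0.686 CPM (78 UMIs), and the ranges of these classes did not overlap. In males T cell-like cells gave only 3 UMIs, in 2 of 6 mice, and LC-like cells 11 UMIs or 1.19 ± 0.829 CPM, so that no order between the classes was detectable at this depth. Ramp2 (chr11:101246028-101259546, plus strand), the adrenomedullin partner, differed in its pattern. It was highest in migratory-like keratinocytes, at 4.90 ± 2.56 CPM in males and 5.14 ± 2.28 CPM in females, did not overlap there with basal-like cells (1.18 ± 0.213 and 1.40 ± 0.515 CPM), and was not found in T cell-like cells, where 0 UMIs allow up to 9.36 CPM in males and 3.21 CPM in females.

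The ligands of these receptors were listed as part of the pathway. Calca, which encodes CGRP alpha, was highest in T cell-like cells, at 48.2 ± 49.9 CPM in males and 38.7 ± 34.3 CPM in females. These levels rested on 15 and 39 UMIs, with at least 1 mouse of each sex at 0, and every other class had at most 0.561 CPM. Calcb, which encodes CGRP beta, reached 9.43 ± 2.38 CPM in upper suprabasal-like cells of females and 3.97 ± 1.62 CPM in terminally differentiated-like cells of males. Adm, encoding adrenomedullin, was higher in upper suprabasal-like cells (140 ± 22.3 CPM in males, 61.5 ± 15.1 CPM in females) than in LC-like cells (34.6 ± 14.7 and 10.2 ± 6.39 CPM), without overlap between mice.

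Lpar1 and Lpar3 shared their highest class, and Lpar6 was spread over all classes. Lpar3 (chr3:146220963-146286186, plus strand) had its highest level in LC-like cells, at 75.3 ± 29.2 CPM in males and 137 ± 20.1 CPM in females, and did not overlap with the next class, which held 4.37 ± 0.931 CPM in males (migratory-like cells) and 10.0 ± 11.0 CPM in females (T cell-like cells, 12 UMIs). Lpar1 (chr4:58435255-58553898, minus strand) was likewise highest in LC-like cells, at 12.6 ± 1.95 and 74.3 ± 12.3 CPM, above migratory-like cells with 5.57 ± 2.31 and 10.7 ± 2.13 CPM. Keratinocyte classes other than migratory-like and basal-like cells had at most 0.575 CPM of Lpar1. For Lpar6 (chr14:73237895-73243294, plus strand) class means lay between 2.95 and 20.3 CPM in males and between 3.80 and 11.98 CPM in females, and in both sexes every class overlapped with the next one in order. Enpp2 (chr15:54838901-54952892, minus strand) was low in all classes. Its highest male level, 3.56 ± 6.47 CPM in migratory-like cells, rested on HFD replicate 2, which gave 54 of 79 UMIs in 14 cells, 15 of them from 1 cell. In the same cells of that mouse 5 fibroblast markers summed to 161 CPM, against 1.30 to 21.9 CPM in the other males, and the part of such cells in the value was not tested. Ramp2 and Lpar1 also had their highest male value in migratory-like cells, 9.85 CPM each, in that mouse. In females the highest level of Enpp2 was in another class, T cell-like cells with 4.60 ± 11.3 CPM, and rested on 3 UMIs of HFD replicate 2, while migratory-like cells of females held 0.131 ± 0.169 CPM.

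The genes of S1P export and sensing were highest in different cells. Spns2 (chr11:72451638-72489904, minus strand) was at 222 ± 26.9 CPM in terminally differentiated-like cells of males and 406 ± 61.7 CPM in those of females, where 2386 and 1183 cells carried a UMI of it. The next class was far lower and did not overlap, namely LC-like cells in males (8.00 ± 4.18 CPM) and upper suprabasal-like cells in females (29.6 ± 7.76 CPM). S1pr1 (chr3:115710433-115715072, minus strand) was found in T cell-like cells, with 9 UMIs in males (33.6 ± 33.0 CPM) and 22 UMIs in females (25.2 ± 19.5 CPM), and its mean stayed at or below 0.251 CPM in all other classes. The mice ranged from 0 to 76.2 CPM in males and from 0 to 55.2 CPM in females, so that T cell-like cells overlapped with LC-like cells in both sexes.

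**Figure D2:**
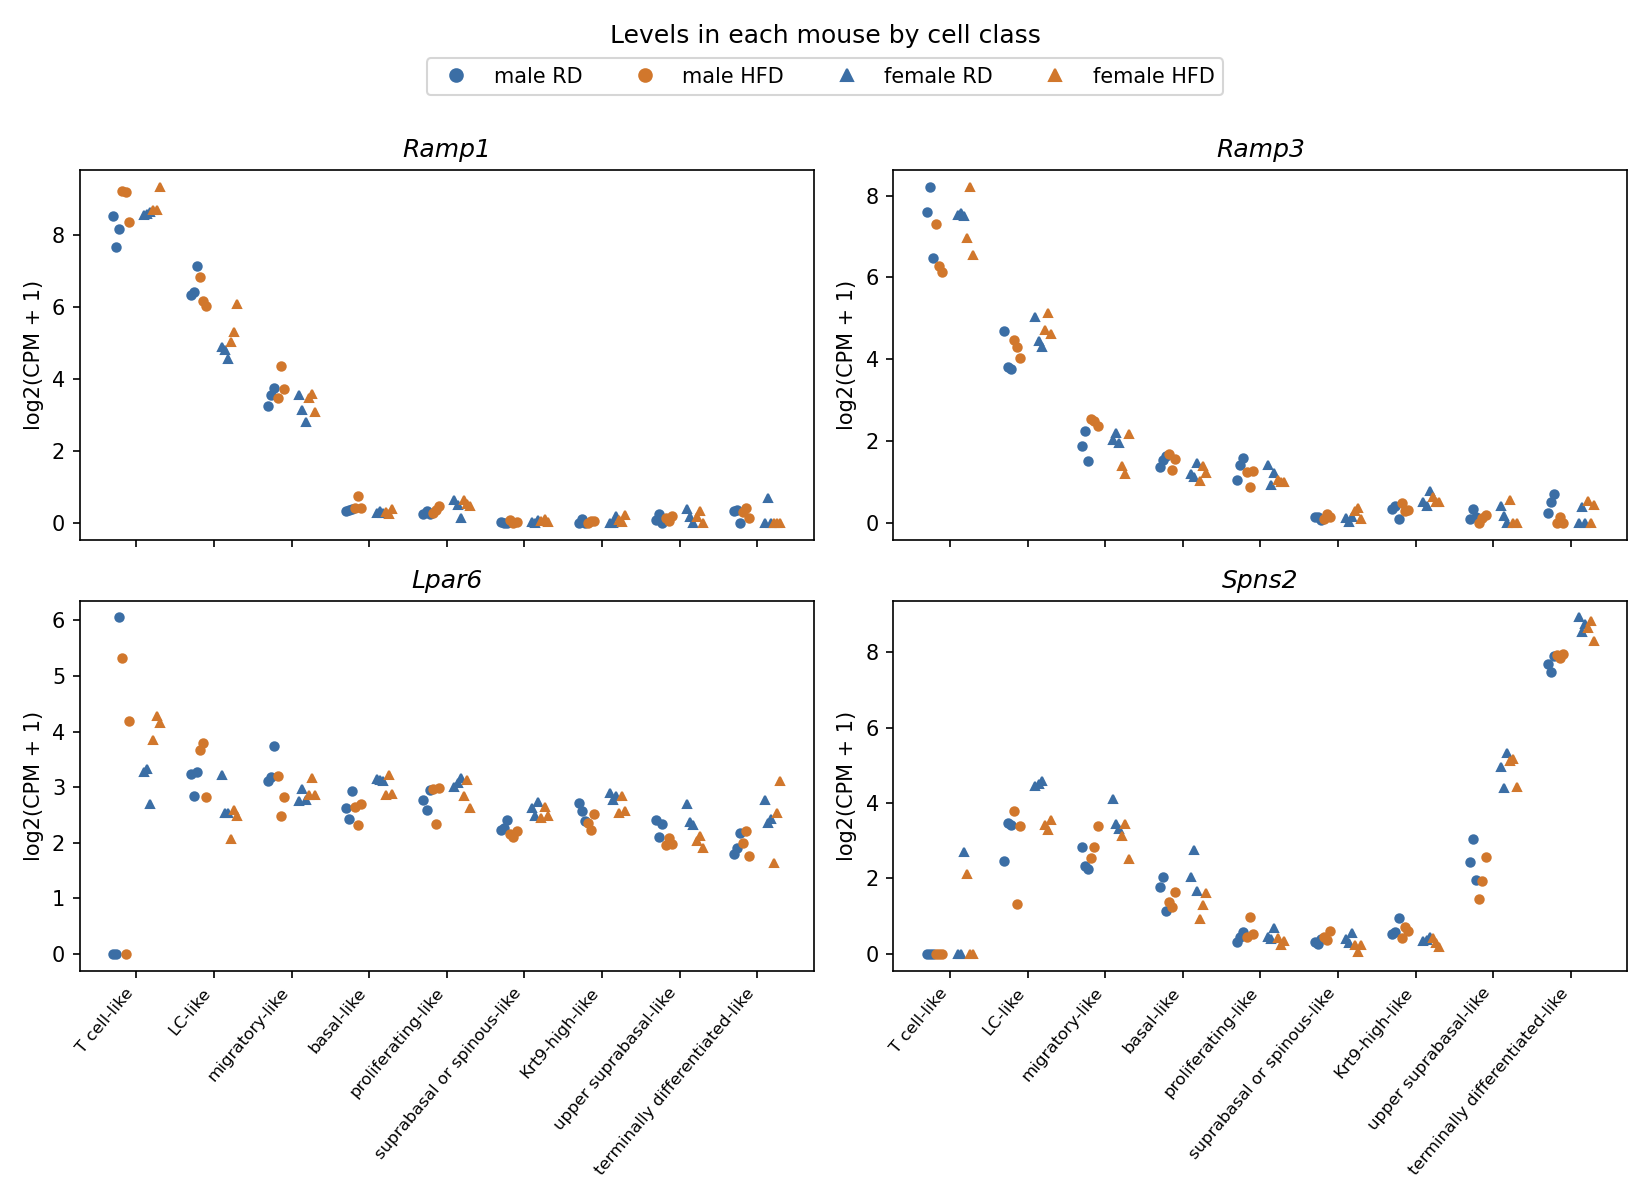
Levels of Ramp1, Ramp3, Lpar6 and Spns2 as log2(CPM + 1) in each mouse (points), by cell class; circles are males, triangles are females, blue is RD and orange is HFD. The column named suprabasal or spinous-like holds female cluster 3 for the females. Ramp1 falls in steps from T cell-like to LC-like to migratory-like cells, and Spns2 is highest in terminally differentiated-like cells, with lower levels in upper suprabasal-like, LC-like and migratory-like cells.

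Further genes of the same routes were taken from lists of 6 genes for CGRP, 8 for LPA and 10 for S1P, and those described here were chosen after their levels were seen. Sgpp1, which dephosphorylates S1P, was highest in upper suprabasal-like cells (216 ± 17.8 CPM in males, 363 ± 22.0 CPM in females), and Sgpl1, the lyase that breaks S1P down, in terminally differentiated-like cells (160 ± 14.1 and 161 ± 30.9 CPM). Plpp1, a phosphatase of LPA, reached 108 ± 20.4 CPM in LC-like cells of females and 43.0 ± 5.22 CPM in those of males, beside 72.9 ± 19.8 and 47.6 ± 3.93 CPM in terminally differentiated-like cells. S1pr5 was highest in migratory-like cells at 13.3 ± 1.79 and 12.6 ± 2.92 CPM. S1pr4, another S1P receptor of lymphocytes, was highest in T cell-like cells, where it rested on 7 and 21 UMIs.

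Genes whose levels followed those of the members most closely over 108 values (12 mice by 9 classes), among 11246 genes with at least 10 CPM in some class, were found by Pearson's r of log2(CPM + 1). For Ramp1 these were Anxa6 (r = 0.98), H2-Q7 (0.97) and Lgals1 (0.97), and for Ramp3 Prelid2 (0.98), Lgals1 (0.97) and Anxa6 (0.97). Lpar3 was followed by Cdk18 (0.89) and Fblim1 (0.88), Lpar1 by Sall2 (0.92), Ninl (0.91) and Ildr1 (0.91), and Spns2 by Dhrs9 (0.92), Cpa4 (0.91) and Nmu (0.91). Calcrl was followed by Ccr8 (0.89) and Abcb1a (0.88). S1pr1 was most like 4932438H23Rik (0.92), Jakmip1 (0.91) and Cyth4 (0.87), and Lpar6 had no gene above 0.77 (Crtc2). Values of 1 mouse share a library, and both sexes share the contrast between classes, so these are descriptions. Ramp2 and Enpp2 stayed under 10 CPM in every class and were not compared.

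Within LC-like cells the levels differed between subclusters. Cells with keratinocyte transcripts (310 male and 386 female cells) had a lower mean CPM of Lpar3 and Ramp1 than the largest other subcluster (678 and 1111 cells). Lpar3 was at 22.7 ± 6.71 CPM in the former and 116 ± 30.2 CPM in the latter in males, and at 55.1 ± 12.4 and 201 ± 39.6 CPM in females. Ramp1 was at 27.6 ± 8.45 and 159 ± 40.4 CPM in males, without overlap between mice, and at 24.4 ± 8.01 and 41.4 ± 20.4 CPM in females, with overlap. These subclusters were made from the same cells' genes, so no test is given. The cells with keratinocyte transcripts had a median of 13290 UMIs in males and 16510 in females, against 3884 and 6374 in the largest other subcluster. CPM are shares of these UMIs, so a lower CPM does not mean fewer receptor transcripts per cell, which were not compared. In males a chemokine-high subcluster (331 cells), led by the stress genes Klf2, Hspa1b, Jun and Atf3 beside Ccl2, held Lpar3 at 144 ± 56.5 CPM and Ramp1 at 144 ± 48.7 CPM, overlapping with the largest subcluster. This male subcluster had 4 of the 8 markers that gave it its name, and 0 of them among its 10 leading genes. Females had a like subcluster of 474 cells, led by Atf3, Klf2, Ccl4, Hspa1a and Jun. It had 2 of the chemokine-high markers where 3 were needed for the name, and its levels are not given here. Cenpe+ cells, which divide, numbered 39 and 35. They held 24 and 94 UMIs of Lpar3, or 85.4 ± 55.3 and 310 ± 133 CPM. Ccr7+ cells, marked by genes of migrating LCs, numbered 17 and 42 and held 0 UMIs of Lpar1 in both sexes, which allows up to 40.0 CPM in males and 10.4 CPM in females.

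The diets were then compared within each sex by the quasi-likelihood test of edgeR on UMIs summed per mouse and class, with Benjamini-Hochberg adjustment over all genes tested in that class. Of 35 tests of a member in a class in males and 43 in females, 0 passed an adjusted p of 0.05. The background over all genes and classes was 0.0125% in males and 1.3% in females. Members under the filter on low counts were not tested, namely S1pr1 in any class of either sex and Enpp2 in any class of males. In T cell-like cells only Ramp1 was tested in males, and only Ramp1 and Ramp3 in females. Calcrl was tested in males in basal-like cells only. At an unadjusted p of 0.05, 5 male and 11 female tests passed, against a background of 9.74% and 15.5% of all tests. Of the tests, 18 were positive and 17 negative in males, with a median log2 fold change of 0.02 against -0.004 for all genes, and 13 were positive and 30 negative in females, with a median of -0.15 against 0.002. These tests repeat the same members over classes of the same mice, so their signs are not separate observations. The share of negative tests over all genes is not given. Groups of 3 mice did not overlap in 7 male and 10 female tests, against a background of 15.6% and 20.7%. A Wilcoxon test over single cells, which takes cells for replicates, called 2 member tests in males and 7 in females, against a background of 6.19% and 13.6%. It used another filter on low counts, with 100626 male and 111916 female tests over all genes, so its member tests are not the same 35 and 43.

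In LC-like cells of males, Lpar3 had CPM values of 51.2, 54.0 and 58.1 in the RD mice and 128, 85.9 and 74.1 in the HFD mice. All HFD mice were above all RD mice, with HFD replicate 1 the highest, and 12.1% of all genes in this class had groups without overlap. The log2 fold change of HFD over RD was 0.78 ± 0.20 (SE), with an adjusted p of 0.629 in edgeR, and the adjusted p ranged from 0.0147 to 1 over the alternatives. Ramp1 was at 80.0, 83.4 and 138 CPM on RD and 113, 70.0 and 64.0 CPM on HFD, with overlapping groups and a log2 fold change of -0.31 ± 0.24 (adjusted p = 0.862, edgeR). Cells with keratinocyte transcripts made up 10.6% of the LC-like cells in HFD replicate 1, 21.9% and 22.2% in the other HFD mice and 19.2% to 26.1% in the RD mice, and 8 basal markers summed to 1090 CPM in HFD replicate 1 against 1811 to 5397 CPM in the other males. Levels and fits use sums of UMIs, and the cells with keratinocyte transcripts held 4742397 of the 9070870 UMIs of male LC-like cells. Without these cells the log2 fold change was 0.66 for Lpar3 and -0.43 for Ramp1, with adjusted p of 0.134 and 0.448 in edgeR. Ramp3, Lpar1, Spns2 and Lpar6 had log2 fold changes of 0.05 ± 0.31, 0.14 ± 0.27, -0.10 ± 0.53 and 0.36 ± 0.37, with adjusted p between 0.896 and 0.991 in edgeR. Over all genes, 0 of 8306 passed the adjusted threshold in LC-like cells of males, a background of 0%. At an unadjusted p of 0.05 there was 1 of 6 members, against 6.31% of all genes.

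In LC-like cells of females, Spns2 had CPM values of 20.9, 21.5 and 23.1 in the RD mice and 9.61, 8.68 and 10.8 in the HFD mice. The HFD mice were all below the RD mice, and 15% of all genes in this class had groups without overlap. The log2 fold change was -1.19 ± 0.18 and the adjusted p 0.0632 in edgeR, just above the threshold that 5 of 10634 genes passed, a background of 0.047%. The adjusted p ranged from 4.72e-05 to 0.266 over the alternatives. Values of Spns2 in further classes of females were chosen after they were seen. In upper suprabasal-like cells, the class with the second highest level, the log2 fold change was -0.06 ± 0.24, from -0.27 to 0.21 over the alternatives, with an adjusted p of 0.94 in edgeR. In basal-like cells Spns2 had CPM values of 3.08, 5.74 and 2.15 on RD and 0.896, 1.45 and 2.09 on HFD, without overlap, which held for 21.2% of all genes in this class, with a log2 fold change of -1.33 ± 0.38 and an adjusted p of 0.143 in edgeR, which ranged from 0.00871 to 0.388 over the alternatives. In migratory-like cells, where the groups overlapped, it was -0.69 ± 0.29 with an adjusted p of 0.316 in edgeR, ranging from 0.0446 to 0.672. Since Spns2 is highest in terminally differentiated-like cells, their 8 marker genes were summed in the LC-like cells. All 8 markers were detected, and their summed level was 140 to 163 CPM on RD and 83.2 to 204 CPM on HFD, so that the diets overlapped. Per 100 UMIs of these markers there were 5.30 to 15.8 UMIs of Spns2 in LC-like cells of females, against 0.206 to 0.252 in terminally differentiated-like cells. In males the values were 0.210 to 1.33 and 0.131 to 0.152. Upper suprabasal-like cells of females also held Spns2, at 29.6 CPM. The log2 fold change of Spns2 in LC-like cells of females was -1.3 to -1.13 over the alternatives. These include the fit without the keratinocyte-transcript subclusters. The part of keratinocyte transcripts in the remaining LC-like cells in the diet difference was not tested.

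Ramp1 in LC-like cells of females was at 28.5, 27.1 and 22.5 CPM on RD and 31.8, 38.7 and 66.5 CPM on HFD. The HFD mice were above the RD mice, with HFD replicate 3 the highest, and the log2 fold change was 0.78 ± 0.26 (adjusted p = 0.416, edgeR). Over the alternatives it was 0.42 (without HFD replicate 3) to 1.01, with an adjusted p from 0.000667 (no filter on low counts) to 0.740. Lpar1 was at 90.3, 72.1 and 87.4 CPM on RD and 64.8, 71.8 and 59.4 CPM on HFD, which did not overlap although RD replicate 2 and HFD replicate 2 lay close to each other. Its log2 fold change was -0.36 ± 0.13 (adjusted p = 0.448, edgeR). Lpar3 differed by 0.19 ± 0.13, Ramp3 by 0.22 ± 0.22, Calcrl by 0.29 ± 0.31 and Lpar6 by -0.51 ± 0.35 on the log2 scale, with adjusted p from 0.741 to 0.842 in edgeR.

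**Figure D3:**
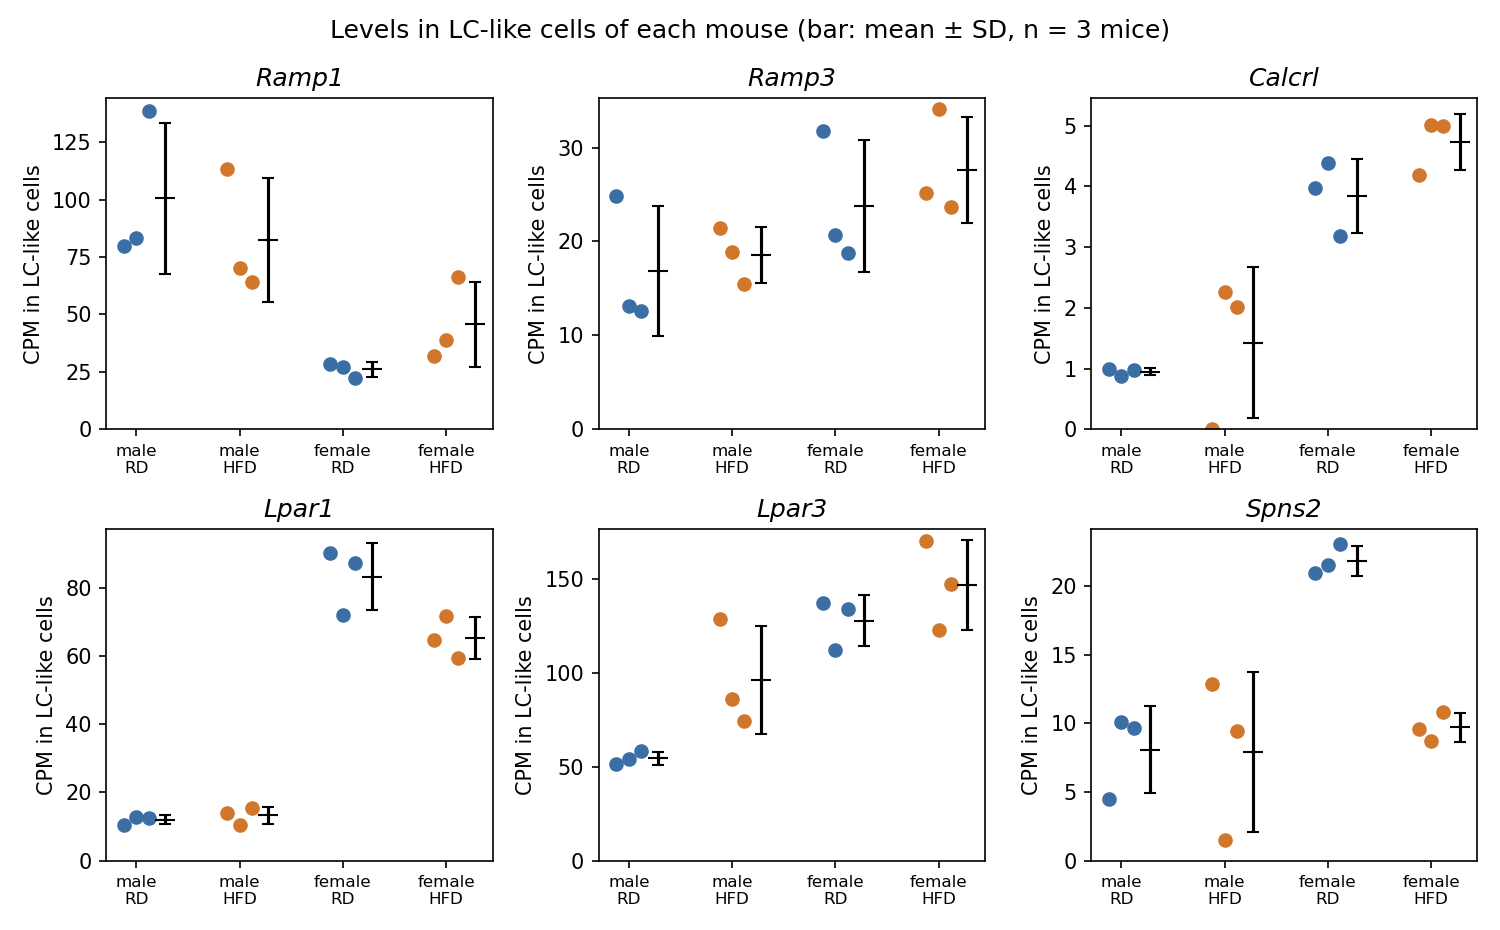
Level in LC-like cells, in CPM, of 6 genes in each mouse (points, blue RD and orange HFD) with mean ± SD of 3 mice beside them. Lpar3 is above RD in all male HFD mice, and Spns2 is lower in all female HFD mice (8.68 to 10.8 CPM) than in all female RD mice (20.9 to 23.1 CPM).

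Whether the sexes differed in their response to diet was tested in 1 model over 12 mice, as the male effect minus the female effect. Of 43 tests of members, 0 passed the adjusted threshold, against a background of 0.0537%, and 8 had an unadjusted p under 0.05, against a background of 11.7%. In LC-like cells the differences on the log2 scale were -1.10 ± 0.40 for Ramp1, 0.57 ± 0.26 for Lpar3, 1.07 ± 0.56 for Spns2, 0.48 ± 0.27 for Lpar1, -0.19 ± 0.41 for Ramp3, 0.39 ± 0.82 for Calcrl and 0.85 ± 0.52 for Lpar6, with adjusted p from 0.837 to 0.993 in edgeR. For Ramp1 the adjusted p ranged from 0.00357 (no filter on low counts) to 1 over the alternatives. Outside LC-like cells the difference passed under an alternative for Spns2 in 2 classes, chosen after the values were seen. It was 0.94 ± 0.38 in terminally differentiated-like and 1.28 ± 0.46 in migratory-like cells, with adjusted p of 0.168 (0.0346 to 0.518 over the alternatives) and 0.281 (0.0124 to 0.493) in edgeR. In the other classes outside LC-like cells the difference of Spns2 was -0.47 to 1.35, with adjusted p from 0.491 to 0.942 in edgeR.

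Outside LC-like cells, the member with the lowest p in each class was as follows. In migratory-like cells of females Ramp2 was at 3.12, 3.40 and 2.70 CPM on RD and 7.30, 7.36 and 6.96 CPM on HFD. The groups did not overlap, which held for 20.2% of all genes in this class, where 0.149% passed the adjusted threshold. The log2 fold change was 1.20 ± 0.22 with an adjusted p of 0.0708 in edgeR, within 0.00295 to 0.231 over the alternatives. Ramp2 also had the lowest p in basal-like, proliferating-like and Krt9-high-like cells of females, with log2 fold changes of 0.86 ± 0.24, 0.74 ± 0.29 and 0.75 ± 0.29 and adjusted p of 0.131, 0.188 and 0.198. In males Ramp2 was at 3.23, 3.75 and 5.43 CPM on RD and 3.09, 9.85 and 4.04 CPM on HFD in migratory-like cells, which overlapped. The value of 9.85 CPM was of HFD replicate 2, whose migratory-like cells had the highest sum of fibroblast markers among the males. Other female values were 0.33 ± 0.24 for Ramp1 in T cell-like cells, -0.25 ± 0.18 for Lpar3 in cluster 3, -0.59 ± 0.25 for Lpar6 in upper suprabasal-like cells and -0.38 ± 0.29 for Spns2 in terminally differentiated-like cells, with adjusted p from 0.344 to 0.815 in edgeR.

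In males, Ramp1 in T cell-like cells was at 365, 203 and 284 CPM on RD and 588, 584 and 327 CPM on HFD, a log2 fold change of 0.81 ± 0.33 with overlapping groups and an adjusted p of 0.368 in edgeR. Spns2 in terminally differentiated-like cells was at 203, 177 and 235 CPM on RD and 240, 229 and 248 CPM on HFD, also overlapping, with a log2 fold change of 0.43 ± 0.17 and an adjusted p of 0.143 in edgeR. Without RD replicate 3 the change was 0.65 with an adjusted p of 0.0387, within a range of 0.0387 to 0.609 over the alternatives. Lpar3 in suprabasal or spinous-like cells differed by 0.61 ± 0.20 and Ramp3 in migratory-like cells by 0.78 ± 0.31. Lpar1 in basal-like cells differed by -0.42 ± 0.32, Lpar3 in proliferating-like cells by -0.33 ± 0.18, Ramp2 in Krt9-high-like cells by -0.58 ± 0.42 and Lpar6 in upper suprabasal-like cells by -0.32 ± 0.17, with adjusted p from 0.458 to 0.897 for these 6 values in edgeR.

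**Figure D4:**
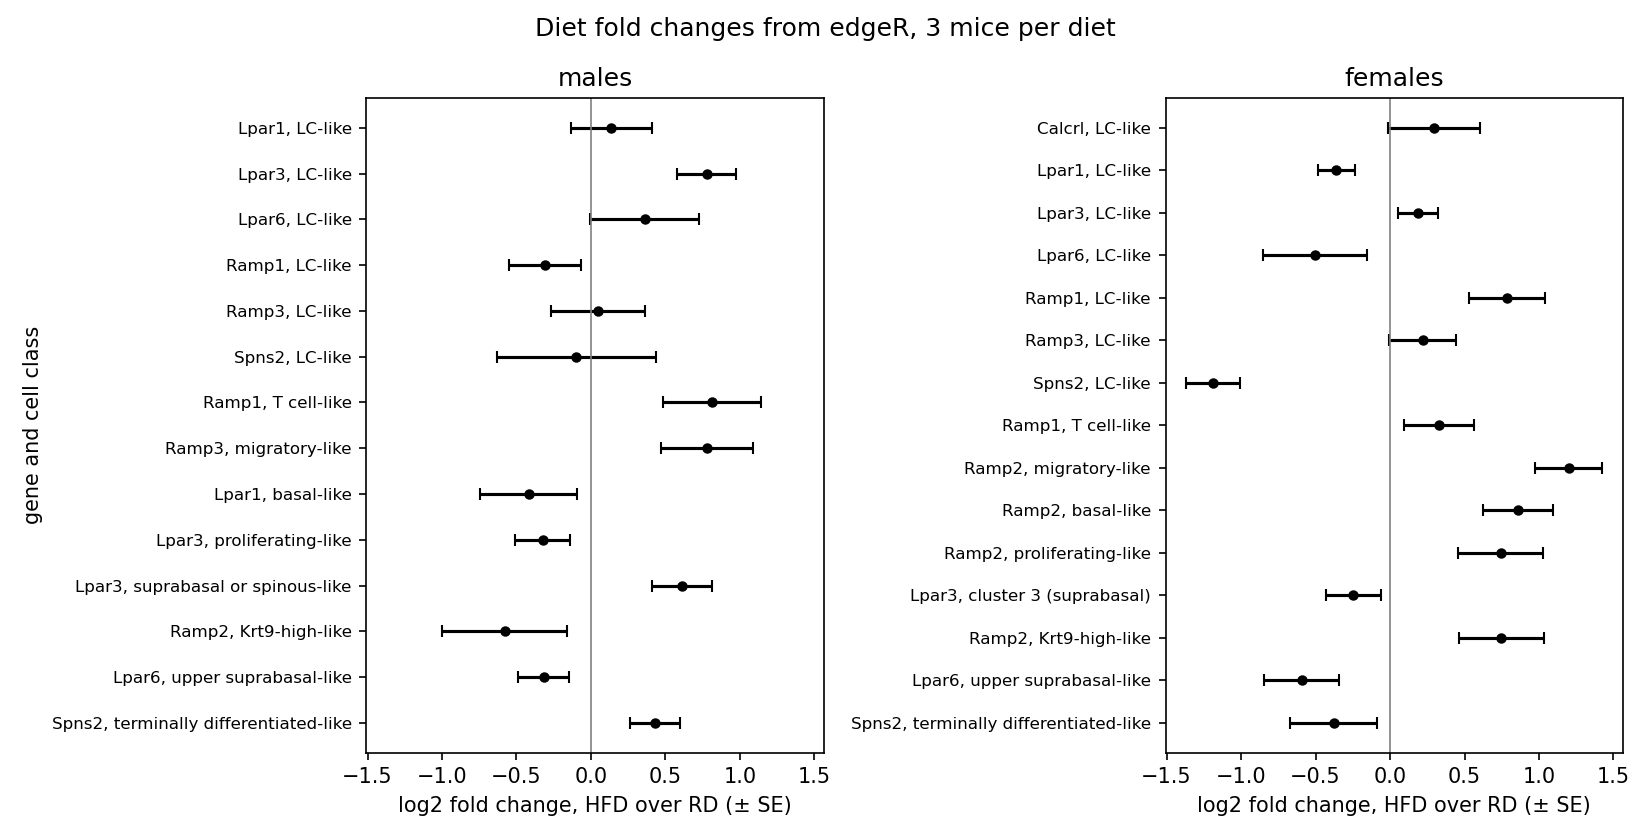
Log2 fold change of HFD over RD (points, bars are SE) from edgeR for each member tested in LC-like cells and for the member with the lowest p in every other class, in males and females. No value passed the adjusted threshold; the lowest is Spns2 in LC-like cells of females at -1.19 and the highest Ramp2 in migratory-like cells of females at 1.20.

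Of the 24 further genes of these routes, 19 were tested in some class in males and 21 in females. In males 0 of 106 tests passed, with 16 at an unadjusted p under 0.05 against 9.74% of all tests. In females 1 of 120 passed, with 16 at an unadjusted p under 0.05 against 15.5% of all tests. Sgpl1 was lower on HFD in cluster 3, by a log2 fold change of -0.26 ± 0.06 (adjusted p = 0.0487, edgeR). In that class 4.57% of all genes passed. The change was not particular to cluster 3. In the other keratinocyte classes of females Sgpl1 differed by -0.63 (terminally differentiated-like) to -0.25 (Krt9-high-like), with adjusted p from 0.0623 to 0.587 in edgeR. In the test of the difference between the sexes 0 of 110 passed, with 12 at an unadjusted p under 0.05 against 11.7% of all tests.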

How the data were processed

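Epidermal cells of 12 mice were sequenced with 10x Genomics 3' chemistry. The authors deposited UMI counts per gene and barcode as raw whole numbers, made with Cell Ranger 6.1.0 (males) or 7.2.0 (females) per the file headers, while the submitters' processing notes name Cell Ranger 7.2.0, Seurat 5.0.0 and mm10. The treatment of intronic reads is not given in the sources used here.

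Following the study's filters, male cells needed 200 genes, female cells 500, and no cell was kept above 6000 genes or 5% mitochondrial UMIs. Each sex was clustered with scanpy 1.11.5 and leidenalg 0.10.2 on 2000 variable genes without the members, 10 principal components and 20 neighbors. A cluster was named when at least 3 markers of a class were present in a share of at least 0.1 of its cells with a log2 fold of at least 0.5. A male cluster of 573 cells with few UMIs stayed unnamed. Doublets were not removed, except as an alternative.

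Counts were summed per mouse and class. CPM are these sums per 1000000 UMIs of the class. Diets were compared with edgeR 4.0.16 (TMM, filterByExpr, quasi-likelihood test, Benjamini-Hochberg threshold 0.05) in classes with at least 10 cells in every mouse, for each sex and as an interaction, which left out the female cluster 3. The SE of a log2 fold change is its size divided by the square root of the F statistic of the quasi-likelihood test, and is no separate estimate. A limit for 0 UMIs is 3 counts over the class of a sex, and covers counting error only. On simulated counts of LC-like cells the test was checked before use. The check used a fixed spread for all genes and does not show which of the changes above could have been found. Alternatives were DESeq2 1.42.0, RLE factors, no filter, leaving out each mouse, a replicate block, removal of doublets, at least 500 genes, LC-like cells without keratinocyte transcripts, and a Wilcoxon test over cells. Ranges of adjusted p and of fold change over the alternatives are those of the fits per mouse and leave out the Wilcoxon test. Positions are from GENCODE vM21 on GRCm38, which held 99.6% of the gene identifiers.

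All members are reported by level. Fold changes are given for each member tested in LC-like cells and, elsewhere, for those past the threshold or else the one of lowest p, and, chosen after the values were seen, for Spns2 in further classes of females and for its difference between the sexes. Pathway genes are named when past the threshold, as ligands, or, chosen after their values were seen, for their levels. For each member with at least 10 CPM in some class, the 3 genes of most similar pattern were sought, and some of these are not reported here. The members and lists were chosen with earlier results of these data known. P-values measure the spread between the mice of a group.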

Additional observations from a re-analysis of the deposited data

How the results depend on the processing

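Counts of members past the adjusted threshold, 0 in each sex and for the difference between the sexes, depended on the processing. Without a filter on low counts they were 1 in males, 6 in females and 2 for the difference between the sexes, while the share over all genes was 1.29%, 2.45% and 1.33%. That setting held 161824, 187647 and 171469 tests over all genes, against 87918, 99026 and 89417 in the main fits. Its member tests were thus not the same 35, 43 and 43. With the highest doublet scores removed the counts of members past the threshold were 1 in males and 1 in females (0.118% and 1.24% of all genes). With DESeq2 there were 2 in females (2.8% of genes with an adjusted p). Without the keratinocyte-transcript subclusters there was 1 in females (1.04% of genes in LC-like cells). A Wilcoxon test over single cells, which treats cells as replicates, called 2 in males and 7 in females, out of a different set of tests (6.19% and 13.6% of all genes). Leaving out each mouse gave 0 to 1 in males (1 without RD replicate 3, Spns2 in terminally differentiated-like cells), 0 in females and 0 to 1 for the difference (1 without female RD replicate 2). The share over all genes was 0.405% in that male fit and 1.54% in that fit of the difference, against 0.0125% and 0.0537% with all mice, and it was the highest of these fits in both cases. In females it was 0.0373% to 2.72%. With RLE factors the count was 0 in males, in females and for the difference (0%, 1.27% and 0.0604% of all genes), with a replicate block likewise 0 (0.281%, 0.552% and 0.0358%), and with at least 500 genes per cell 0 in males and for the difference (0.00455% and 0.0604%). The replicate numbers were taken as names of the mice only. Of 54 same-numbered pairs, 7 had a correlation of deviations above 0.1, in a range from -0.356 to 0.192. The highest same-numbered pair was replicate 2 in LC-like cells of males. Differently numbered pairs ranged from -0.331 to 0.411, and in LC-like cells of males RD replicate 3 and HFD replicate 1 reached 0.362. Whether same-numbered mice shared a preparation was not tested.

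Of 497 alternative values of 36 named fold changes, 466 kept direction and side of the threshold, 18 passed it and 13 changed sign. Sign changes were Lpar1 in LC-like cells of males at -0.01 without HFD replicate 3 (0.28 at the other end, without HFD replicate 2), and Ramp3 there at -0.18 without doublets, -0.36 without keratinocyte transcripts, -0.16 to 0.48 without a mouse (3 of 6 fits below 0) and -0.18 over single cells. Spns2 in LC-like cells of males was 0.09 without doublets and -0.51 to 0.42 without a mouse (above 0 without RD or HFD replicate 2). Ramp3 in LC-like cells of females was -0.05 without doublets, and its difference between the sexes -0.45 to 0.25 without a mouse (above 0 without male RD replicate 1 or female HFD replicate 2). The causes were not tested. The highest class of each of the 10 members stayed the same under every other clustering and mouse left out, except Enpp2 without female HFD replicate 2, which left 9. Calcrl, S1pr1 and Enpp2 are limited by few UMIs.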
